A study of Danio rerio with 5 samples.

Results

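The interferon regulatory factors are a family of DNA-binding proteins that switch on interferon genes and the genes that interferon induces. Here 9 of their genes were followed in whole zebrafish larvae with and without a deletion in zbtb24, namely irf1b, irf2, irf3, irf4a, irf5, irf7, irf8, irf9 and irf10. They were chosen by name, as the rows of the expression table that carry these symbols, and make up 9 of 21854 genes listed. The names were picked with earlier results of these data known. Shares of the 9 set against all genes below are therefore description only. All larvae were 2 weeks old, and each RNA library came from a pool of 10 of them. The controls, labelled WT, were wild type, and the libraries labelled Mutant are described as homozygous for the zbtb24mk22 allele, a large germline deletion of coding sequence made with TALENs in AB fish. In humans, loss of ZBTB24 causes ICF syndrome, an immunodeficiency with unstable centromeres, in which pericentromeric repeats lose DNA methylation, and the study asked which genes respond early to that loss.

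Family members share an N-terminal DNA-binding domain that recognizes GAAA repeats, found in the promoters of interferon genes and of interferon stimulated genes. When a sensor such as Mda5 meets double-stranded RNA, the adaptor Mavs and the kinase Tbk1 activate Irf3 and Irf7, which induce interferon. Secreted interferon then acts through JAK kinases and STAT proteins, and a complex of STAT proteins with Irf9 raises a large set of target genes, irf7 among them. Other family members act mainly in the development of blood cells, such as Irf8 in macrophages and Irf4 in lymphocytes.

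There were 2 libraries labelled WT and 3 labelled Mutant, with 23796792 to 28601962 reads assigned to genes in each. The design description gives 3 pools per genotype, so fewer WT libraries were present than it describes. The libraries labelled WT are called WT 2 and WT 3 after their columns, because the column numbers do not match the sample names. All values are scaled counts, which are reads over a size factor for each library, so that 1 read was worth from 0.861 to 1.08. The sample labels name fin as the source, whereas the description of the series names whole larvae. All 13 marker genes of eye, liver, pancreas, muscle, brain and heart were present in every library, the lowest being the heart gene myl7 at 561 scaled counts in WT 3, so the RNA was not from fin alone. Some markers of organs, skin and fin moved with the groups. Of 16 tested 3 were higher, the liver gene tfa (log2 fold change 1.07, adjusted p = 0.0239 in limma), the skin gene krt5 (0.67, adjusted p = 0.0227) and the fin-ray gene and2 (0.54, adjusted p = 0.0426), and 1 was lower, the cone gene gnat2 (-0.74, adjusted p = 0.0209). The groups did not overlap in 11 of the 16, with those labelled Mutant higher in 8 and lower in 3. Over all genes tested, 3.32% were called higher and 2.68% lower. In 22.3% of genes tested all libraries labelled Mutant lay above both labelled WT, and in 22.7% they lay below. The part of tissue makeup in the values below was not tested. The targeted gene zbtb24 went against the labels. It had scaled counts of 127 and 77.3 in the pair labelled WT, against 155, 175 and 282 among those labelled Mutant (log2 fold change 0.98, SE 0.28, adjusted p = 0.0642 in limma). Totals per gene do not show whether these transcripts carry the deletion, and every direction below is between libraries as labelled.

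Transcripts of irf7 and irf1b were higher in the libraries labelled Mutant, by 1.80-fold and 1.67-fold, and these were the only 2 of the 9 genes to pass an adjusted p of 0.05 in limma. None was lower (0 also at an unadjusted p under 0.05, and 0 with voom). Of all 20307 genes tested, 6.00% were called, 3.32% higher and 2.68% lower, and of the 9 members 2 were called higher. All 9 passed the filter of a mean scaled count of at least 10. In irf4a the mean was 9.70 in WT and 14.3 in Mutant, so it passed only through the libraries labelled Mutant. It is still counted among the 9 below. The median log2 fold change of the 9 was 0.51, against 0.00 over all genes tested (-0.0014), and all 9 values were positive, against 49.8% of all genes. In each of the 9 the highest library was labelled Mutant and the lowest was labelled WT, an arrangement seen in 39.3% of genes tested. The groups did not overlap in irf1b, irf3, irf7, irf8 and irf10, with every library labelled Mutant above both labelled WT, which held for 22.3% of genes tested. These 5 were also the members with an unadjusted p under 0.05, which 13.1% of genes reached with a positive change.

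**Figure D1:**
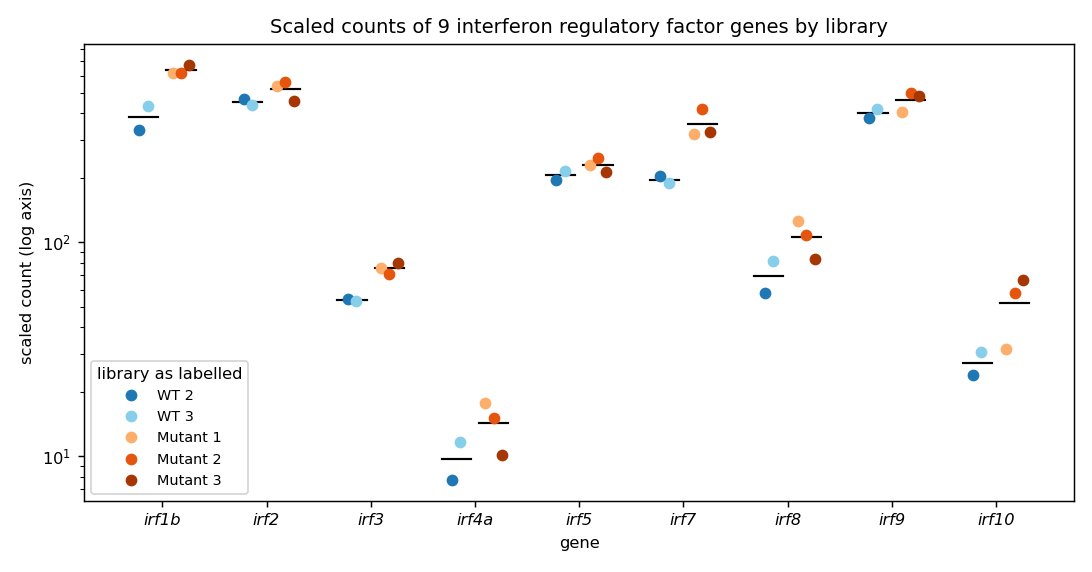
Scaled counts on a log axis for the 9 interferon regulatory factor genes in the 2 libraries labelled WT (blue) and the 3 labelled Mutant (orange to brown), with group means as black lines. All points labelled Mutant lie above both points labelled WT for irf1b, irf3, irf7, irf8 and irf10, and the groups overlap for irf2, irf4a, irf5 and irf9.

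The factors that act directly below the RNA sensors were irf3 and irf7. Irf7 is at once an inducer of interferon and a product of interferon signalling. Scaled counts of irf7 (ENSDARG00000045661) were 204 and 188 in the pair labelled WT, against 322, 418 and 327 among those labelled Mutant. Mutant 2 was the highest, and the lowest library labelled Mutant lay well above both labelled WT. Means were 196 ± 11 (SD, n = 2) and 356 ± 53.9 (SD, n = 3), and the log2 fold change was 0.84 (SE 0.15, 95% confidence interval 0.51 to 1.18, adjusted p = 0.0215 in limma). In the libraries labelled WT the SD was 0.803 times what counting error alone gives, and in those labelled Mutant it was 2.82 times that.

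Irf3 is present before infection in vertebrate cells and is controlled by phosphorylation more than by transcription. Scaled counts of irf3 (ENSDARG00000076251) were 54.2 and 52.9 in the pair labelled WT, against 76.2, 71.0 and 79.8 among those labelled Mutant. The groups did not overlap. The libraries within each group were closer than counting error alone gives on average, with an SD 0.129 times (WT) and 0.501 times (Mutant) that error. The log2 fold change was 0.49 (SE 0.19, 95% confidence interval 0.07 to 0.91) and did not pass the threshold (adjusted p = 0.138 in limma). The change of irf7 over that of irf3 was examined as a ratio within each library. The scaling of a library changes this ratio only through the 1 added to each count. The ratio of scaled counts plus 1, not corrected for gene length, was 3.71 and 3.51 in the pair labelled WT. Among those labelled Mutant it was 4.18, 5.81 and 4.06. The log2 ratio was higher by 0.36 in the latter (exact permutation p = 0.3, two-sided, 0.4 adjusted over the 4 ratios computed), and it was higher by 0.19 without Mutant 2. With 2 libraries against 3 this test cannot go below 0.1.

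Irf1 and Irf2 bind the same promoter elements, Irf1 as an activator induced by interferon-gamma and Irf2, in mammals, mostly as its antagonist. Scaled counts of irf1b (ENSDARG00000043249) were 333 and 435 in the pair labelled WT, against 619, 620 and 675 among those labelled Mutant. The 3 values of the latter were nearly the same, while the SD of the pair labelled WT was 3.76 times that of counting error. Means were 384 ± 72.1 (SD, n = 2) and 638 ± 31.8 (SD, n = 3), and the log2 fold change was 0.74 (SE 0.13, 95% confidence interval 0.44 to 1.04, adjusted p = 0.0221 in limma).

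Those of irf2 (ENSDARG00000040465) were 466 and 438 against 534, 559 and 459. Mutant 3 fell between the libraries labelled WT, so the groups overlapped. On the log2 scale the difference was 0.19 (SE 0.12, adjusted p = 0.357 in limma), and its confidence interval of -0.09 to 0.47 leaves out a change of the size seen in irf7. Per library, the ratio of irf1b to irf2 was 0.716 and 0.993 in the pair labelled WT, against 1.16, 1.11 and 1.47 among those labelled Mutant. These did not overlap, and the difference of 0.55 on the log2 scale reached the smallest p the test allows (exact permutation p = 0.1, two-sided, 0.2 adjusted over 4 ratios).

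Irf9 is the DNA-binding subunit of the complex with STAT proteins through which type I interferon acts. Scaled counts of irf9 (ENSDARG00000016457) were 381 and 421 in the pair labelled WT, against 408, 497 and 481 among those labelled Mutant. Mutant 1 lay between the pair labelled WT. The log2 fold change was 0.20 (SE 0.13, 95% confidence interval -0.09 to 0.49, adjusted p = 0.351 in limma).

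Irf8 is required in zebrafish for macrophages to form. Scaled counts of irf8 (ENSDARG00000056407) were 57.7 and 81.5 in the pair labelled WT, against 126, 108 and 83.9 among those labelled Mutant. Mutant 3 was barely above WT 3, and Mutant 1 was the highest. The log2 fold change was 0.60 (SE 0.23, 95% confidence interval 0.09 to 1.11) and did not pass the threshold (adjusted p = 0.136 in limma). It was 0.35 without WT 2. In RNA of whole larvae, more cells of a type and more RNA per cell cannot be told apart. The change of irf8 was therefore set against macrophage genes in the same libraries. The ratio of irf8 to mpeg1.1, a perforin-like gene used to mark macrophages, was 0.190 and 0.247 in the pair labelled WT, against 0.254, 0.199 and 0.173 among those labelled Mutant. These overlapped (log2 difference -0.08, exact permutation p = 0.8, two-sided, 0.8 adjusted over 4 ratios), and the sign changed with a library left out (-0.26 to 0.11). Against spi1b, which encodes the myeloid factor Pu.1, the ratio of irf8 was 0.415 and 0.510 and then 0.731, 0.701 and 0.667. This did not overlap (log2 difference 0.60, exact permutation p = 0.1, two-sided, 0.2 adjusted over 4 ratios). The separation holds for spi1b, whose own log2 fold change was -0.01 (SE 0.17). Its paralogue spi1a was at 0.70 (SE 0.17), and a ratio of irf8 to spi1a was not computed.

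Irf5 acts below Toll-like receptors and Myd88 in macrophages and dendritic cells of mammals. Scaled counts of irf5 (ENSDARG00000045681) were 195 and 216 in the pair labelled WT, against 230, 249 and 212 among those labelled Mutant, and Mutant 3 lay between the pair labelled WT. Its log2 fold change of 0.16 (SE 0.14, 95% confidence interval -0.15 to 0.48, adjusted p = 0.486 in limma) was the smallest of the 9.

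Irf4 is a factor of lymphocytes, and irf4a (ENSDARG00000006560) was the member with the fewest reads. It had 9 and 11 reads in the pair labelled WT, against 18, 14 and 10 among those labelled Mutant, or scaled counts of 7.75 and 11.6 against 17.8, 15.1 and 10.1. The groups overlapped, and their SDs were 0.905 and 1.02 times counting error, so nearly all of the spread was of the size that counting so few reads gives. The log2 fold change was 0.51 (SE 0.39), and with a confidence interval of -0.37 to 1.39 neither no change nor a doubling is outside the range (adjusted p = 0.438 in limma).

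Irf10 is a family member that humans lack, and in zebrafish it has been described as a brake on the interferon response. Scaled counts of irf10 (ENSDARG00000027658) were 24.1 and 30.7 in the pair labelled WT, against 31.7, 58.1 and 66.7 among those labelled Mutant. Mutant 1 was at the level of WT 3 and the other two were well above, so that the SD of 18.3 (n = 3) was 2.5 times that of counting error. The log2 fold change of 0.85 (SE 0.33, 95% confidence interval 0.12 to 1.57) was the largest of the 9 but did not pass the threshold (adjusted p = 0.137 in limma).

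**Figure D2:**
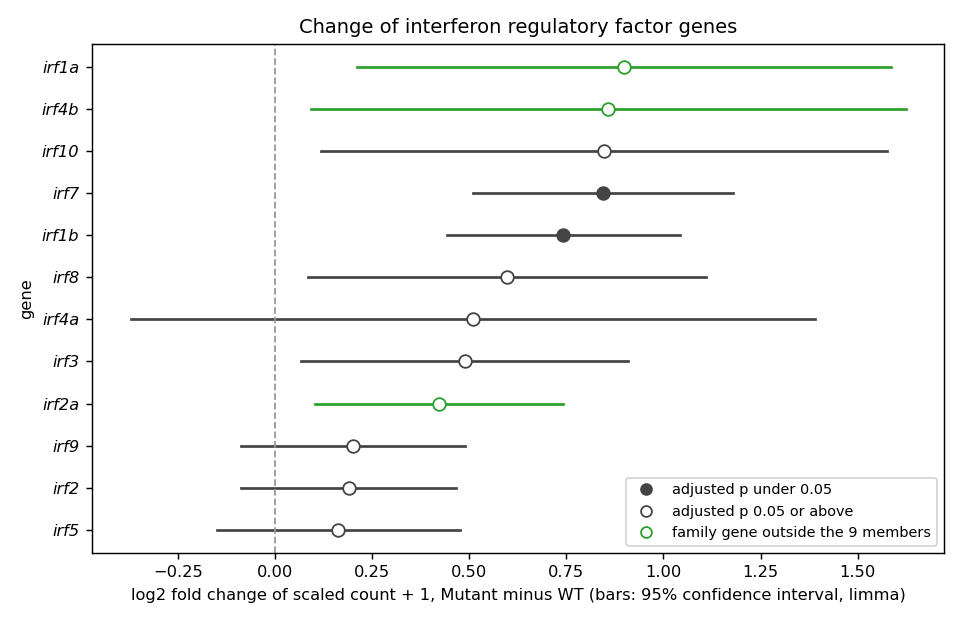
Log2 fold change between libraries labelled Mutant and WT with its 95% confidence interval from limma, for the 9 members (grey) and 3 further genes of the family (green), and filled where the adjusted p is under 0.05. Only irf7 (0.84) and irf1b (0.74) are filled, and the intervals of irf2, irf4a, irf5 and irf9 include 0.

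Of the family genes outside the chosen 9, the paralogues irf1a, irf2a and irf4b also had positive values, and 0 of the 3 passed the threshold in limma (3 had an unadjusted p under 0.05, and voom called 0). In irf1a, the paralogue of irf1b, scaled counts were 25.0 and 33.9 in the pair labelled WT, against 52.4, 39.8 and 79.8 among those labelled Mutant (log2 fold change 0.90, SE 0.31, adjusted p = 0.104). Those of irf2a, the paralogue of irf2, were 300 and 355 against 421, 504 and 396 (log2 fold change 0.42, SE 0.14, adjusted p = 0.1). Of irf4b there were 9 and 11 reads in the pair labelled WT, the same numbers as for irf4a, and 19, 16 and 18 in those labelled Mutant (log2 fold change 0.86, SE 0.34, adjusted p = 0.149). Its mean scaled count was 9.70 in WT and 18.1 in Mutant, so it too passed the filter only through the libraries labelled Mutant.

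Reads of paralogues can be split between them, so pairs were also summed. The sum of irf1a and irf1b was 358 and 469 in the pair labelled WT, against 672, 660 and 755 among those labelled Mutant, of which irf1b took from 89.4% to 94.0%. For irf2 and irf2a the sum was 766 and 793 against 955, 1062 and 855, so the summed pair did not overlap between the groups although irf2 alone did. The sum of irf4a and irf4b was 15.5 and 23.3 against 36.6, 32.3 and 28.3 and did not overlap either. On the log2 scale the 3 sums differed by 0.76, 0.29 and 0.73.

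Genes that lie over the members could change the reads counted for them if strand was not used in counting, which is not stated. In the RefSeq annotation of assembly GRCz12tu, a later build than that of the table, ddx46 overlaps irf1b, fra10ac1 overlaps irf3 and phrf1 overlaps irf7, while 0 genes overlap the other members. Their log2 fold changes were -0.14 (ddx46, SE 0.11, adjusted p = 0.434), -0.09 (fra10ac1, SE 0.18, adjusted p = 0.781) and 0.06 (phrf1, SE 0.09, adjusted p = 0.731). The part of these genes in the values of irf1b, irf3 and irf7 was not tested.

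Upstream of the family, values of the sensors, adaptors and kinases lay mostly near 0. Of 18 genes listed 14 were found and 13 were tested, and 0 passed the threshold in limma (4 had an unadjusted p under 0.05, and voom called 0), with a median log2 fold change of 0.14. The kinase tbk1, which phosphorylates Irf3 and Irf7, was at 1632 and 1530 scaled counts in the pair labelled WT, against 1483, 1174 and 1474 among those labelled Mutant. This was a log2 difference of -0.21 (SE 0.12, adjusted p = 0.307), and every library labelled Mutant lay below both labelled WT. Its relative ikbke lay above in every library, at 454 and 482 against 556, 590 and 541 (log2 fold change 0.26, SE 0.11, adjusted p = 0.161). The sensor gene ifih1, which encodes Mda5, was at 0.29 (SE 0.18, adjusted p = 0.327), its modulator dhx58 at 0.51 (SE 0.19, adjusted p = 0.13) and the adaptor mavs at 0.03 (SE 0.11, adjusted p = 0.9). The DNA sensor gene mb21d1, which encodes cGAS, had 12.9 and 18.0 scaled counts against 26.7, 121 and 31.3. Mutant 2 was far above the other libraries (log2 fold change 1.55, SE 0.55, adjusted p = 0.111). The gene tmem173, which encodes Sting of the cGAS pathway, was at 0.54 (SE 0.22, adjusted p = 0.162).

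Of the interferon genes listed, those found were ifnphi1 and ifnphi3, and the others are not analysed here. The ligand genes ifnphi1 and ifnphi3 had at most 14.8 and 8.08 scaled counts in any library, and their means were below the filter, so neither was tested. In ifnphi1 they were 6.03 and 7.41 in the pair labelled WT, against 14.8, 7.53 and 13.1 among those labelled Mutant. Mutant 2, the highest library for irf7, was at the level of WT 3 here. Of the receptor chains 4 were tested and 0 passed in limma (0 at an unadjusted p under 0.05 and 0 with voom), with log2 fold changes between -0.01 and 0.18.

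Of the kinases and STAT genes of the receptors, the 5 described here had log2 fold changes between -0.01 and 0.18, and 0 passed in limma (0 at an unadjusted p under 0.05, and 0 with voom). The receptor kinase gene jak1 had 2528 and 2534 scaled counts in the pair labelled WT, against 2750, 2761 and 3085 among those labelled Mutant (log2 fold change 0.18, SE 0.10, adjusted p = 0.266). The groups did not overlap there. In stat2, whose product binds Irf9 in its complex, they overlapped, at 1794 and 1500 against 1543, 1938 and 1798 (log2 fold change 0.09, SE 0.12, adjusted p = 0.661).

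Proteins that bind DNA together with the family, or bind to its members, went both ways. Of 10 tested genes 1 was higher, spi1a, a paralogue of the myeloid factor spi1b, with 124 and 164 scaled counts in the pair labelled WT, against 252, 244 and 202 among those labelled Mutant (log2 fold change 0.70, SE 0.17, adjusted p = 0.0456 in limma). That call was lost with columns set to equal totals (adjusted p = 0.0532), with voom (0.0526) and without Mutant 1 (0.0966), Mutant 2 (0.155) or WT 2 (0.32). Its paralogue spi1b was at -0.01 (SE 0.17, adjusted p = 0.987). The 4 genes of the Irf2-binding proteins, which in mammals act as co-repressors with Irf2, were all lower in every library labelled Mutant than in both labelled WT, against 22.7% of all genes tested. In limma 0 of the 4 passed the threshold (3 had an unadjusted p under 0.05). In irf2bp2b scaled counts were 1530 and 1378 against 1257, 809 and 1047 (log2 fold change -0.51, SE 0.16, adjusted p = 0.0896). It was called in 1 of 13 alternatives, voom (adjusted p = 0.0495), which called 1246 of all genes lower against 544 in the main fit. Without Mutant 2 its log2 fold change was -0.34 (adjusted p = 0.232 in limma). In irf2bp2a they were 994 and 935 against 865, 541 and 770 (log2 fold change -0.44, SE 0.18, adjusted p = 0.148). The values of irf2bpl (-0.26, SE 0.11, adjusted p = 0.178) and irf2bp1 (-0.23, SE 0.11, adjusted p = 0.209) were smaller. Mutant 2 was the lowest library in all 4, and the share of all genes with Mutant 2 lowest is not given here. Outside these 4, tcf3a was also lower, at 520 and 430 scaled counts in the pair labelled WT, against 394, 267 and 333. Its log2 fold change was -0.53 (SE 0.17, adjusted p = 0.0897 in limma), and it was called in 1 of 13 alternatives, voom (adjusted p = 0.0491).

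Downstream, antiviral genes known to be induced by interferon were listed, and 15 of the 18 found were tested. Of these 5 were higher and 0 lower in limma (9 higher and 1 lower at an unadjusted p under 0.05), and the median log2 fold change was 0.80. Over all genes tested 3.32% were called higher, and 13.1% were higher at an unadjusted p under 0.05. The list was chosen with earlier results known, so these counts are description only. Means in WT were below the filter of 10 in gig2l (0.43), mxa (9.96) and mxb (3.08). These genes passed it only through the libraries labelled Mutant (means 226, 50.85 and 14.6). Among the 5 called higher, mxc, one of the Mx GTPases, rose from 213.5 and 269 scaled counts to 399, 380 and 436 (log2 fold change 0.75, SE 0.14, adjusted p = 0.0234), about as much as irf7 and irf1b. The deISGylase gene usp18 (listed as USP41), a feedback inhibitor of interferon signalling, rose by 1.12 (SE 0.24, adjusted p = 0.0327). That call was kept in 8 of 13 alternatives and lost in every fit with a library left out. The adjusted p in limma was 0.0523 without Mutant 1, 0.104 without Mutant 2 and 0.0573 without Mutant 3. Its log2 fold change was 1.33 without WT 2 and 0.90 without WT 3. The rise of pkz, a kinase of fish that binds Z-form nucleic acid, was 0.80 (SE 0.20, adjusted p = 0.0467). Its call was kept in 7 of 13 and lost with equal totals (adjusted p = 0.0542), quantile normalization (0.0504) and voom (0.0611). It was also lost without Mutant 2 (adjusted p = 0.163 in limma), without Mutant 3 (0.0879) and without WT 2 (log2 fold change 0.69). The rise of mxa was 2.29 (SE 0.45, adjusted p = 0.0273) and the fifth was gig2l, with 1 and 0 reads in WT 2 and WT 3, against 19, 485 and 135 among those labelled Mutant (adjusted p = 0.0175), at least 78.4-fold higher when a floor of 3 reads per library stands for WT. Mutant 2 decides much of that bound, which is 26.9-fold without it. The call of gig2l was lost with robust empirical Bayes (adjusted p = 0.0774), with voom (0.0707), without Mutant 2 (0.0529) and without WT 2 (0.0793). By contrast, isg15 was at 145 and 219 against 134, 273 and 256 (log2 fold change 0.24, SE 0.29, adjusted p = 0.631). The count fell to 3 with voom or without Mutant 3, and to 0 without Mutant 2 or without WT 2.

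Antigen processing genes are textbook targets of Irf1. Of 14 tested 5 were higher and 0 lower in limma (9 higher at an unadjusted p under 0.05), with a median log2 fold change of 0.61. Shares over all genes tested were 3.32% called higher and 13.1% higher at an unadjusted p under 0.05. This list too was chosen with earlier results known, so its counts are description only. The immunoproteasome subunit gene psmb8a had 62.8 and 67.8 scaled counts in the pair labelled WT, against 145, 150 and 157 among those labelled Mutant, which gave 1.19 on the log2 scale (SE 0.16, adjusted p = 0.0109). The other rises were those of psmb10 (1.03, SE 0.24), psmb9a (0.91, SE 0.21) and the proteasome activator genes psme2 (0.75, SE 0.13) and psme1 (0.71, SE 0.14). The groups did not overlap in these 5, so their lowest library had to be WT 2 or WT 3. It was WT 2 in each, as in 6 of the 9 members, irf1b among them. The share of all genes with WT 2 lowest is not given here, so these counts are description only. Without WT 2 the count was 0, it was 3 without Mutant 1 or Mutant 3, and it was 1 without Mutant 2 (psmb8a, adjusted p = 0.0493). The negative value in the list was that of nlrc5, an activator of class I genes in mammals (-0.83, SE 0.41, adjusted p = 0.229).

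**Figure D3:**
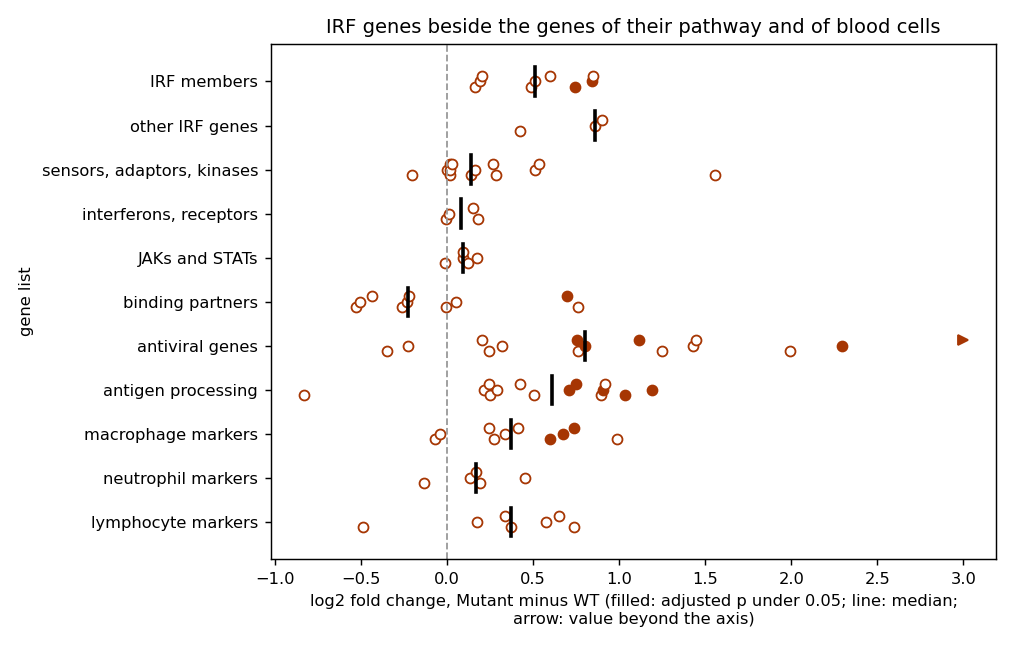
Log2 fold change between libraries labelled Mutant and WT for each tested gene of the family, of its pathway and of 3 lists of blood cell markers, with the median of each list as a black line and points filled where the adjusted p is under 0.05 in limma, and an arrow for gig2l, which lies beyond the axis. The members (median 0.51), antiviral genes (0.80) and antigen processing genes (0.61) lie mostly to the right of 0. The sensors, adaptors and kinases (0.14) lie mostly near 0, and the binding partners (-0.23) lie mostly to its left.

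Because irf5 and irf8 are read out of blood cells, markers of those cells were examined in the same libraries. Of 10 tested macrophage genes 3 were higher and 0 lower in limma, against 3.32% higher and 2.68% lower over all genes tested, and the median was 0.37. These were mpeg1.1 (log2 fold change 0.67, SE 0.12, adjusted p = 0.0209), the chemokine receptor gene cxcr3.2 (0.74, SE 0.17, adjusted p = 0.0363) and apoeb, which many other tissues also express (0.60, SE 0.11, adjusted p = 0.0223). By contrast csf1ra, the receptor gene of macrophage colony-stimulating factor, was at -0.07 (SE 0.13, adjusted p = 0.773). Summed without apoeb, the list was at 2140 and 2228 scaled counts in the pair labelled WT, against 2648, 2801 and 2835 among those labelled Mutant, and 0 of its genes were at 0 in any library. Without Mutant 2 or without WT 2 the count of macrophage genes was 0, and without Mutant 1 it was 1. The part of these markers in the values of irf8 was not tested beyond the ratios above.

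Of 5 neutrophil genes 0 passed in limma (0 at an unadjusted p under 0.05, and 0 with voom), and their sum was 2058 and 2089 against 3257, 2227 and 2169. Of 7 lymphocyte genes 0 passed (3 at an unadjusted p under 0.05, and 0 with voom, although 1 was called without Mutant 3). Their sum was 468 and 466 in the pair labelled WT, against 815, 704 and 492 among those labelled Mutant. It was thus highest in Mutant 1 and lowest of the group in Mutant 3, the same order as in irf8, irf4a and the neutrophil sum. Most of the lymphocyte sum was rag1, at 544, 450 and 280 in Mutant 1, 2 and 3. Of the lymphocyte list only rag1 had this order by itself. In rag2 Mutant 1 and Mutant 2 were equal, and lck and cd4 were highest in Mutant 2. Among the libraries labelled Mutant, zap70 and il7r were lowest in Mutant 2 and pax5 was highest in Mutant 3. Of the neutrophil genes lyz, csf3r and npsn had the order, while mpx and mmp13a were lowest in Mutant 2 within the group. The share of all genes with this order is not given here, so it is description only. The part of lymphocyte and neutrophil genes in the values of irf4a and irf8 was not tested. The 7 melanocyte genes, whose cells also use Irf4 in mammals, had a median of -0.09 with 0 passing in limma (0 at an unadjusted p under 0.05, and 0 with voom).

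Genes with the pattern most like that of irf7 and irf10, the members with the largest log2 fold changes, were sought among genes whose mean scaled count was 50 or more (17298 and 17299 genes). The measure was the Euclidean distance between log2 values, each less the gene's own mean, over the 5 libraries. Closest to irf7 were si:dkey-21e2.4 (distance 0.136), haus4, which encodes a subunit of the augmin complex of the mitotic spindle (0.198), and si:dkeyp-11e3.1 (0.202). In haus4 scaled counts were 108 and 114 against 183, 215 and 191. Closest to irf10 were si:dkey-21e2.13 (0.328), wu:fb63a08 (0.335) and the ABC transporter gene abcg2b (0.416), so that the neighbours of irf10 were farther from it than those of irf7.

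Finally, each library was left out in turn. All 9 members kept a positive log2 fold change in all 5 of these fits. They did so too in the 8 other settings tried, except that irf4a and irf10 were not tested with a minimum mean of 50. The call of irf7 was lost without Mutant 2 (log2 fold change 0.72, adjusted p = 0.0848 in limma) and without WT 2 (0.90, adjusted p = 0.0945). That of irf1b was lost without the same libraries (0.76, adjusted p = 0.0869, and 0.55, adjusted p = 0.142). In each of these fits the number of all genes called higher also fell, to 48 and 31 from 674, and it was 240 without Mutant 1 and 1317 without WT 3. Over all settings the adjusted p of irf7 ranged from 0.0181 to 0.0945 and that of irf1b from 0.00703 to 0.142. Among the members not called, irf10 ranged from 0.64 to 1.16, irf8 from 0.35 to 0.84 and irf4a from 0.24 to 0.78 as libraries were left out, while irf3 stayed between 0.45 and 0.53.

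**Figure D4:**
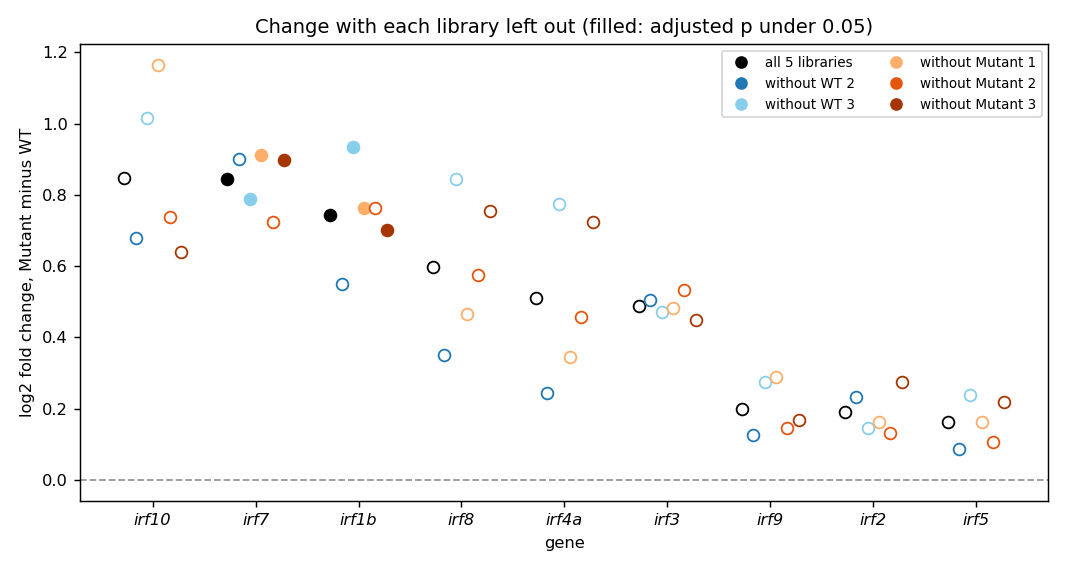
Log2 fold change of each member with all 5 libraries (black) and with each library left out (colours), filled where the adjusted p is under 0.05 in limma. Every value is above 0, irf3 moves least (0.45 to 0.53), and the points of irf7 and irf1b without WT 2 or without Mutant 2 are open.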

How the data were processed

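Poly(A) RNA from pools of larvae was made into strand-specific libraries, and both ends of fragments were read. The authors mapped them to danRer7 with STAR in 2 passes, counted them per gene with HTSeq 0.5.3 on an Ensembl annotation and scaled them with DESeq. Each deposited value is a signal, reads over a size factor plus 1. After subtracting 1, all values were whole multiples of 1 step per column, within a tolerance of 0.01, so reads are known. Whether counting used strand is not stated.

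Log2 values of the scaled count with a pseudocount of 1 entered limma 3.58.1 (R 4.3.3). The fit held both groups, used no covariates and let the prior variance follow the mean. Tests were two-sided. Genes whose mean scaled count was below 10 were left out. The p-values were adjusted over all genes that remained, with the Benjamini-Hochberg method. Adjusted p-values are those of limma unless voom is named. Fold changes are on the log2(scaled count + 1) scale and understate changes of low genes. Log2 ratios of gene pairs were taken after adding 1 to each scaled count and compared with an exact permutation test. The code was tested on simulated data.

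Named genes were the 9 members, zbtb24, genes of the lists, and for the 2 members with the largest change the 3 most similar genes. The members and lists were chosen with earlier results of these data known. Some genes of these lists are not reported here and were left out of the counts. List symbols that matched no row are not analysed here, and psmb13a shares the row of psmb10. A total of 13 alternatives were run, 5 of them leaving out a library, where a lone WT library is assumed to vary like the others.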

Additional observations from a re-analysis of the deposited data

How the results depend on the processing

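Of 70 comparisons of a member under another pseudocount, filter, scaling or test, 70 kept their direction and side of the threshold, as did 41 of 45 with a library left out. The other 4 were the lost calls of irf7 and irf1b. No paired analysis was possible because the WT columns are numbered 2 and 3 and their titles otherwise. The planned count model fits were not run. Columns set to equal totals gave 481 genes higher and 1103 lower, and voom gave 485 and 1246, against 674 and 544, and moved the median of all genes to -0.09. With equal totals and voom respectively, the median was 0.056 and 0.062 for sensors, adaptors and kinases, -0.0028 and -0.0053 for receptor chains and 0.010 and 0.011 for JAK and STAT genes, mavs was at -0.058 and -0.057, and 0 binding partners were higher. With voom 2 binding partners were lower and 3 antiviral genes higher. With quantile normalization spi1b was at 0.030. The median of the other family genes was 0.57 with a pseudocount of 8 and 0.42 with a minimum mean of 50. With a minimum of 50 only irf2a of these genes was tested, so 0.42 is its own value. With a pseudocount of 8 the median was the value of irf4b, which was 0.86 in the main fit.

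With each library left out, from 31 to 1317 genes were higher and from 13 to 1111 lower (low ends without WT 2, high ends without WT 3). The members had from 0 to 2 called and a median from 0.35 to 0.78. The median was 0.59 to 1.11 for the other family genes, 0.080 to 0.16 for JAK and STAT genes and 0.068 to 0.22 for sensors, adaptors and kinases. From 0 to 7 antiviral genes, from 0 to 6 antigen processing genes and from 0 to 1 binding partners were higher. The ratio of irf8 to spi1b differed by 0.46 to 0.75. The ratio of irf1b to irf2 differed by 0.32 to 0.79 and that of irf7 to irf3 by 0.19 to 0.45. The sign changed for isg15 (-0.057 to 0.57), mavs (-0.013 to 0.065), spi1b (-0.11 to 0.11) and stat2 (-0.034 to 0.22). Depth limits irf4a and irf4b, which had 9 to 19 reads a library.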
